A study of Homo sapiens with 6 samples.

Results

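The AF9, ENL and DOT1L elongation partners were 10 genes picked by symbol from the 57133 symbols of the count table. The choice did not use their counts, but earlier results of these data were known when it was made. The list holds MLLT3 (AF9) and MLLT1 (ENL), whose proteins bind CBX8, together with MLLT10 (AF10), DOT1L, AFF1, AFF4, ELL, ELL2, CDK9 and CCNT1. RNA-seq was carried out on the glioblastoma cell line T98G after CRISPR knockout of CBX8 (CBX8 KO). Of the 6 libraries, 3 came from CBX8 KO cells with the empty TetOFUW vector and 3 from CBX8 KO cells with WT CBX8 in that doxycycline-inducible vector (WT CBX8 re-expression). Both lines were selected as stable lines with puromycin and hygromycin and, per the labels, all 6 libraries followed doxycycline at 1 μg/ml for 72 h. Titles and methods describe re-expression in the knockout line, although the genotype label of these libraries reads wild type. Whether the knockout line is 1 clone, and whether the libraries are separate cultures, is not stated, so each p-value measures the spread between libraries, which may be technical. The comparison asks how transcript levels differ between knockout cells with the WT CBX8 vector and those with the empty vector. None of the 6 libraries came from unedited T98G cells, so the endogenous level of CBX8 is not known here. Whether the vector restored or exceeded that level was therefore not tested, and the CBX8 transcript is set beside marker genes below.

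RNA polymerase II commonly pauses shortly after initiation, and release into elongation requires P-TEFb, the kinase CDK9 with its cyclin CCNT1. In the super elongation complex, the AFF1 or AFF4 scaffold joins P-TEFb to ELL or ELL2 and to AF9 or ENL, whose YEATS domains read acylated histone lysines. The C-terminal domain of AF9 and ENL binds AFF4, DOT1L, CBX8 or BCOR in turn, so the same surface meets elongation factors and a Polycomb protein, and DOT1L with AF10 methylates histone H3 on transcribed genes.

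The 10 genes were placed on hg38 by GENCODE release 44. MLLT1 (ENSG00000130382.9) spans 6210381 to 6279975 of chromosome 19 in 12 exons, and MLLT3 (ENSG00000171843.17) spans 20341669 to 20622499 of chromosome 9 in 11 exons. ELL2 (ENSG00000118985.16) spans 95885098 to 95961851 of chromosome 5 in 12 exons, and all 3 are transcribed from the minus strand. For 8 of the 10 genes RefSeq (GRCh38.p14) gave a promoter window, taken here as the 250 bases before the start. DOT1L and ELL2 had none in the table. The windows of MLLT1 and MLLT3 are shown because their proteins are the CBX8-binding pair. MLLT1 was called lower upon re-expression, whereas MLLT3 did not pass the test. Both are read 5′ to 3′ on the minus strand, and capitals mark matches to the GC box GGGCGG on either strand.
MLLT1, chr19:6279976-6280225: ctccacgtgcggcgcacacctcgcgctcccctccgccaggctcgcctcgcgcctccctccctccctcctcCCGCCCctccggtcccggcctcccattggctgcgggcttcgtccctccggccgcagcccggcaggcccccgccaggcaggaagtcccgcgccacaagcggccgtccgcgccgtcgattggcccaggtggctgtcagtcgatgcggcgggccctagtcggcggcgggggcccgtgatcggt
MLLT3, chr9:20622500-20622749: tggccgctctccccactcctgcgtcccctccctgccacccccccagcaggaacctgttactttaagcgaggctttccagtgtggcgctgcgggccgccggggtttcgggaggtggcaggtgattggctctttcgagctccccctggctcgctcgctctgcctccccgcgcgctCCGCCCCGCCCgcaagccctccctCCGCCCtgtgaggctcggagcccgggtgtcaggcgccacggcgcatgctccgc
The MLLT1 window held 34 CpG dinucleotides at 77.2% GC, with 1 GC box, 2 CCAAT boxes and 1 E-box (CACGTG). In the MLLT3 window there were 24 CpG dinucleotides at 72.0% GC, with 3 GC boxes, some of which share bases, and 1 CCAAT box. All 8 windows held at least 1 GC box, against 42.6% of the 35116 windows in the table, and none held TATAAA, against 10.7%. CpG dinucleotides per window ranged from 13 (MLLT10) to 37 (CDK9), all above the median of 11 over all windows. Both strands were searched, CCAAT was found in 32.0% and CACGTG in 6.3% of all windows, and a match is a description of letters only. The MLLT10 start that RefSeq places just after its window lies 9110 bases from the first base GENCODE gives that gene.

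The table held between 7950190 and 8659796 counts per library. In CBX8 KO, CBX8 itself had counts of 96, 104 and 83, and upon re-expression it had 30372, 31408 and 27791. The log2 fold change was 8.22 (SE 0.08, edgeR FDR = 1e-30), so the 2 groups follow their labels in CBX8 transcript. Counts do not show whether the knockout removed the protein. FDR here is the Benjamini-Hochberg adjusted p of edgeR's quasi-likelihood test over the 14461 genes that passed the filter on low counts, and a gene was called at FDR < 0.05. Levels are CPM, each count relative to the total of its library after TMM scaling, with mean ± SD over 3 libraries per condition. Counts are compared in bulk RNA, where fewer cells of a type and less RNA per cell cannot be told apart. Of 9 markers of glioblastoma lines, VIM, CD44, TNC and EGFR had at least 460 counts in every library, GFAP and OLIG2 had 13 to 38, NES had at most 4, and S100B and SOX2 had 0. Of the 6 that were tested, 1 was called lower (CD44) and 1 higher (TNC). With the WT CBX8 vector, CBX8 reached 3570, 3588 and 3309 CPM, a mean of 3489 ± 156. In the same libraries VIM, the highest of the 6 tested markers, averaged 2820 ± 77 CPM, and CD44 2506 ± 129 CPM. Cells with the empty vector had a CBX8 mean of 11.7 ± 0.94 CPM. These levels are not corrected for transcript length, and none was compared with unedited cells. PTPRC, PECAM1, EPCAM, RBFOX3 and MBP, markers of other cell types, had at most 4 counts in any library.

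All 10 elongation partners were expressed and passed the filter, with 78 to 3626 counts in each library. Upon WT CBX8 re-expression, ELL2 and MLLT1 fell, no partner was called higher, and 8 were not called. That is 20% called, where 12.9% of all tested genes were called, 6.63% lower and 6.23% higher. At an unadjusted edgeR p under 0.05 there were 3 lower and 2 higher, where 3662 of the 14461 tested genes had such a p in either direction. DESeq2 and limma voom also called 2 lower and 0 higher. Over all genes DESeq2 called 664 lower and 417 higher, and limma voom 950 lower and 874 higher. The median log2 fold change was 0.02 over the 10 genes and 0.00 over all tested genes, and the median size of change, whichever the direction, was 0.16 and 0.13. In CPM the conditions did not overlap for 3 partners that were lower (ELL2, MLLT1 and MLLT3) and 1 that was higher (CDK9), against 28.9% of all tested genes without overlap in either direction. The plot of CPM by library shows how narrow most of these shifts are beside the level of each gene.

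**Figure D1:**
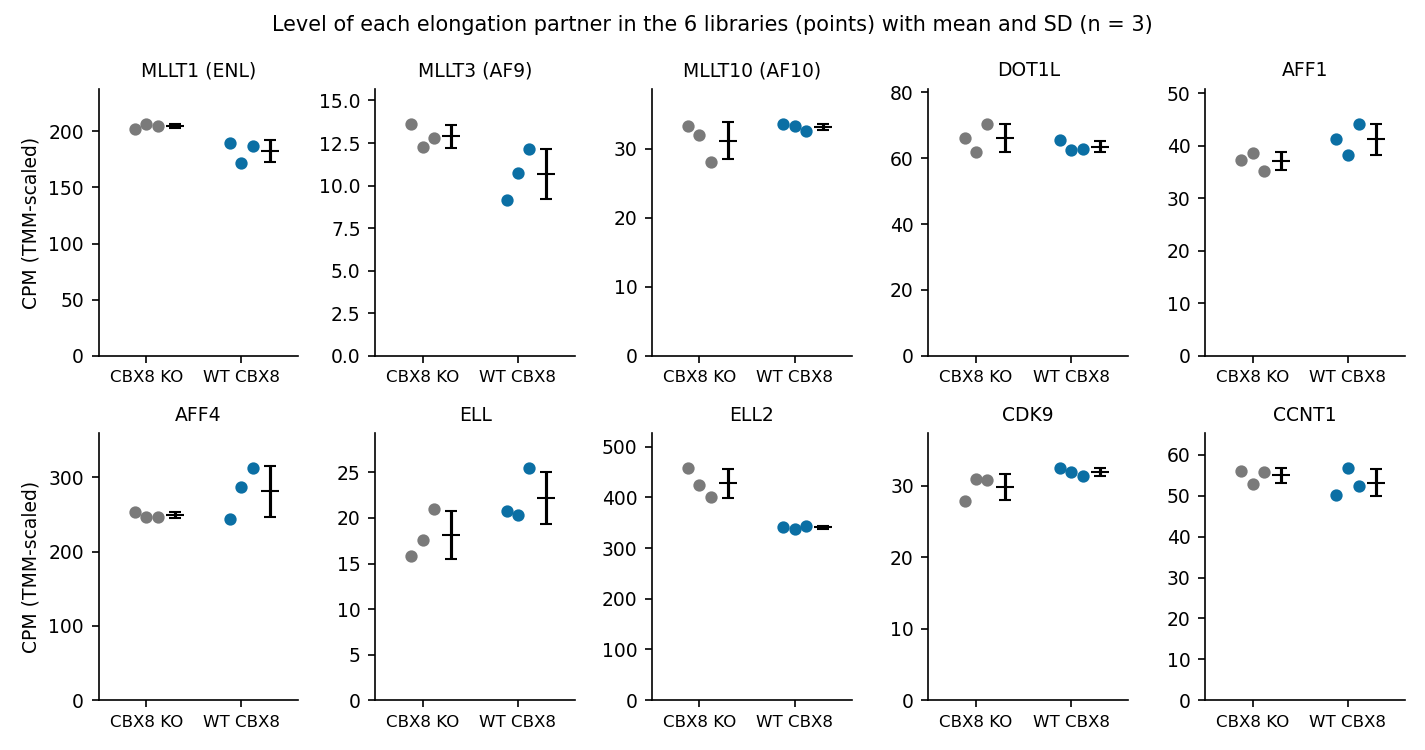
CPM (TMM-scaled, linear axis from 0) of each of the 10 elongation partners in 3 CBX8 KO libraries (grey) and 3 WT CBX8 re-expression libraries (blue, marked WT CBX8), with mean and SD beside the points. All 3 re-expression libraries lie below all 3 CBX8 KO libraries for MLLT1, MLLT3 and ELL2 and above them for CDK9, and the points overlap for the other 6 genes.

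MLLT1 encodes ENL, a YEATS reader that recruits the super elongation complex and DOT1L. It had 1604, 1740 and 1602 counts in CBX8 KO and 1611, 1502 and 1569 upon re-expression, or 202, 207 and 205 CPM against 189, 172 and 187 CPM. Every re-expression library was below every CBX8 KO library, and replicate 2 was the lowest. The mean went from 205 ± 2.16 to 183 ± 9.60 CPM, and MLLT1 fell by 0.17 on the log2 scale (SE 0.05, 95% interval −0.27 to −0.06, edgeR FDR = 0.0285). This call was lost when libraries were scaled by library size only (edgeR adjusted p = 0.166), with a replicate block (0.0621), and without CBX8 KO replicate 2 (0.109), CBX8 KO replicate 3 (0.0541) or re-expression replicate 2 (0.23). Over all alternatives its log2 fold change stayed below 0, between −0.26 and −0.11, with adjusted p from 0.00013 to 0.23.

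MLLT3 encodes AF9, the paralogue of ENL. Its counts were 108, 103 and 100 in CBX8 KO and 78, 94 and 102 upon re-expression, or 13.6, 12.2 and 12.8 CPM against 9.17, 10.7 and 12.1 CPM. The conditions did not overlap, but their ranges nearly touched, at 12.1 and 12.2 CPM. At 12.9 ± 0.70 and 10.7 ± 1.49 CPM, the log2 fold change was −0.27 (SE 0.13, 95% interval −0.53 to −0.01), which did not pass the test (edgeR FDR = 0.188). Without re-expression replicate 1 it was −0.17 (edgeR adjusted p = 0.503). MLLT3 drew 4.62 to 6.31% of the counts of the pair, and its interval takes in the estimate of MLLT1.

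DOT1L, the histone H3 methyltransferase that AF9 and ENL bind, had 66.0, 61.9 and 70.4 CPM in CBX8 KO and 65.5, 62.4 and 62.6 CPM upon re-expression. The conditions overlapped, and the log2 fold change was −0.06 (SE 0.06, 95% interval −0.19 to 0.07, edgeR FDR = 0.637). Corrected for GC content and length, it was −0.20 and was called (edgeR adjusted p = 0.0203), a value outside the interval without the correction. Exons of DOT1L overlap those of PLEKHJ1 and of another gene on the opposite strand over 895 bases, and without a stated strand setting reads there cannot be assigned. MLLT10 encodes AF10, which binds DOT1L and promotes its higher methylation states. It had 33.3, 32.0 and 28.2 CPM in CBX8 KO and 33.6, 33.2 and 32.6 CPM upon re-expression. Its log2 fold change was 0.09 (SE 0.09, 95% interval −0.09 to 0.27, edgeR FDR = 0.585).

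Both AFF scaffolds had estimates above 0 and neither was called. AFF4, the main scaffold of the complex, had 253, 247 and 246 CPM in CBX8 KO and 244, 287 and 312 CPM upon re-expression. Re-expression replicate 1 lay below all 3 CBX8 KO libraries and the other 2 above them, so the SD went from 4.0 to 34.5 CPM. Its log2 fold change was 0.18 (SE 0.06, 95% interval 0.05 to 0.30, edgeR FDR = 0.0644). AFF4 passed the threshold without re-expression replicate 1 (log2 fold change 0.26, edgeR adjusted p = 0.00114), with library size only (0.00911), with no filter on low counts (0.0245) and with the GC and length correction (0.0247). Without re-expression replicate 3, by contrast, the log2 fold change was 0.09 (edgeR adjusted p = 0.391). AFF1, known as AF4 and a fusion partner of KMT2A in leukaemia, had 37.2, 38.6 and 35.2 CPM in CBX8 KO and 41.3, 38.3 and 44.2 CPM upon re-expression. The conditions overlapped through re-expression replicate 2, and the log2 fold change was 0.15 (SE 0.08, 95% interval −0.01 to 0.32, edgeR FDR = 0.244), or 0.10 without re-expression replicate 3.

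The ELL paralogues, which speed elongation by limiting pauses of the polymerase, had estimates on opposite sides of 0. ELL2 had 3626, 3574 and 3132 counts in CBX8 KO and 2908, 2960 and 2886 upon re-expression, or 458, 425 and 401 CPM against 342, 338 and 344 CPM. No re-expression library reached the CBX8 KO range, and the 3 re-expression libraries were close to each other (341 ± 2.77 CPM, against 428 ± 28.5 CPM). ELL2 fell by 0.33 on the log2 scale (SE 0.05, 95% interval −0.43 to −0.22), a change of −20.2% (edgeR FDR = 5.23e-05). It kept this direction and call in all 16 alternative fits, with log2 fold changes from −0.37 to −0.27. ELL had 15.8, 17.6 and 21.0 CPM in CBX8 KO and 20.8, 20.3 and 25.5 CPM upon re-expression. The conditions overlapped through CBX8 KO replicate 3, and the log2 fold change was 0.29 (SE 0.12, 95% interval 0.05 to 0.53), not called (edgeR FDR = 0.103). ELL was called without CBX8 KO replicate 3 (log2 fold change 0.41, edgeR adjusted p = 0.0315) and with library size only (0.0469), while without re-expression replicate 3 the log2 fold change was 0.18 (0.409). Exons of ELL overlap those of a gene on the opposite strand over 473 bases.

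For P-TEFb, CDK9 had 27.8, 30.9 and 30.7 CPM in CBX8 KO and 32.4, 31.9 and 31.3 CPM upon re-expression. These ranges did not overlap, but the gap between them was under 1 CPM and the log2 fold change was 0.10 (SE 0.09, 95% interval −0.08 to 0.28, edgeR FDR = 0.541). CCNT1, cyclin T1, had 56.2, 53.0 and 55.8 CPM in CBX8 KO and 50.3, 56.8 and 52.4 CPM upon re-expression. Its log2 fold change was −0.05 (SE 0.07, 95% interval −0.19 to 0.09, edgeR FDR = 0.724), and it was 0.01 with library size only. For either subunit the interval leaves out a change as large as that of ELL2. The plot of fold changes sets the 10 intervals side by side.

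**Figure D2:**
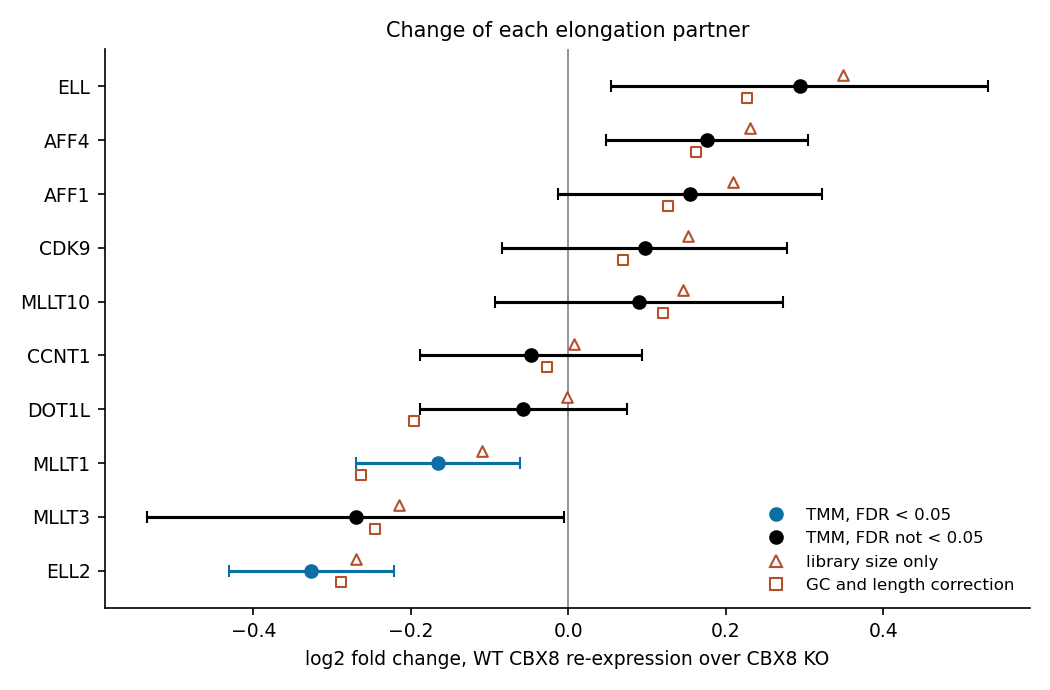
Log2 fold change of WT CBX8 re-expression over CBX8 KO for each elongation partner (points) with 95% intervals, blue where FDR < 0.05. Open triangles give the value with library size only and open squares with the GC content and length correction. ELL2 (−0.33) and MLLT1 (−0.17) are blue and lie below 0 at every setting drawn, while the square of DOT1L (−0.20) lies outside its interval.

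Levels of different genes were compared as CPM per kilobase of the canonical transcript. ELL2 was the highest of the 10, at 73.4 in CBX8 KO and 58.6 upon re-expression, followed by MLLT1 (45.2 and 40.3) and AFF4 (26.1 and 29.5). These 3 stood at the 91.8, 86.8 and 79.4 percentiles of the 12690 tested genes with a length, whose median level was 8.78. CDK9 (12 and 12.8), DOT1L (8.64 and 8.30) and CCNT1 (8.10 and 7.83) were near that median, at the 59.2, 49.1 and 47.6 percentiles. MLLT10 (6.06 and 6.45), ELL (4.56 and 5.59), AFF1 (4.0 and 4.45) and MLLT3 (1.92 and 1.59) lay below it, MLLT3 at the 15.9 percentile. From the highest to the lowest, the level differed by 38.3 times in CBX8 KO and by 36.9 times upon re-expression. By canonical length, the order by mean was the same in both conditions. The ranges of DOT1L and CCNT1 overlapped in both conditions, those of ELL and AFF1 in CBX8 KO and those of MLLT10 and ELL upon re-expression. In CBX8 KO, MLLT10 (5.475 to 6.48) lay above ELL (3.97 to 5.29). Upon re-expression, ELL (5.12 to 6.42) lay above AFF1 (4.13 to 4.77). These are ranges over libraries, and no test between genes was run. With the length of all annotated exons in place of the canonical transcript, CCNT1 moved above DOT1L and ELL above MLLT10 in CBX8 KO. By that length the order differed between conditions. MLLT10 was above AFF1 in CBX8 KO (3.41 and 3.38) and below it upon re-expression (3.63 and 3.76). The partners called lower, ELL2 and MLLT1, were the 2 most abundant per kilobase. In CPM, AFF4 (249 and 281) was above MLLT1 (205 and 183). A call also depends on precision, as MLLT3 had −0.27 (SE 0.13) uncalled and MLLT1 −0.17 (SE 0.05) called. ELL2 (38.9% GC) and MLLT1 (63.5%) lie near opposite ends of the base composition of the list. The 10 transcripts ranged from 38.0% (MLLT3) to 63.5%. With the GC and length correction, the log2 fold change was −0.29 for ELL2 and −0.26 for MLLT1. Whether base composition bears on either change was not tested.

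Within 3 pairs of paralogues that can fill the same place in the complex, the ratio of counts in each library does not depend on the scaling between libraries. The ratios were not corrected for GC content, which differs within pairs. It was 38.9% for ELL2 and 59.5% for ELL, 38.0% for MLLT3 and 63.5% for MLLT1, and 44.8% for AFF1 and 41.1% for AFF4. ELL2 over ELL was 29.0, 24.2 and 19.1 in CBX8 KO and 16.4, 16.6 and 13.5 upon re-expression. The ratio was lower in every re-expression library, with mean log2 ratios of 4.57 ± 0.30 and 3.95 ± 0.17 (SD, n = 3 each), a difference of −0.62 or a ratio of 0.651 times that in CBX8 KO. A two-sided exact permutation test gave p = 0.1, the smallest that the 20 relabellings of 3 against 3 libraries allow, and 0.3 after Benjamini-Hochberg adjustment over the 3 pairs. ELL2 thus made up 95 to 96.7% of the counts of the pair in CBX8 KO and 93.1 to 94.3% upon re-expression.

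MLLT3 over MLLT1 was 0.0673, 0.0592 and 0.0624 in CBX8 KO and 0.0484, 0.0626 and 0.0650 upon re-expression. AF9 was the minor transcript of the CBX8-binding pair in all 6 libraries, and the conditions overlapped (difference in mean log2 ratio −0.11, exact permutation p = 0.7, adjusted 0.9). Without re-expression replicate 1 the difference was 0.02. AFF1 over AFF4 was 0.147, 0.157 and 0.143 in CBX8 KO and 0.169, 0.134 and 0.141 upon re-expression, a difference of −0.01 (exact permutation p = 0.9, adjusted 0.9). That difference was 0.06 without re-expression replicate 2, 0.015 without re-expression replicate 3 and 0.02 without CBX8 KO replicate 2. These ratios are of counts, not of levels per length, and are drawn in the plot of paralogue ratios.

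**Figure D3:**
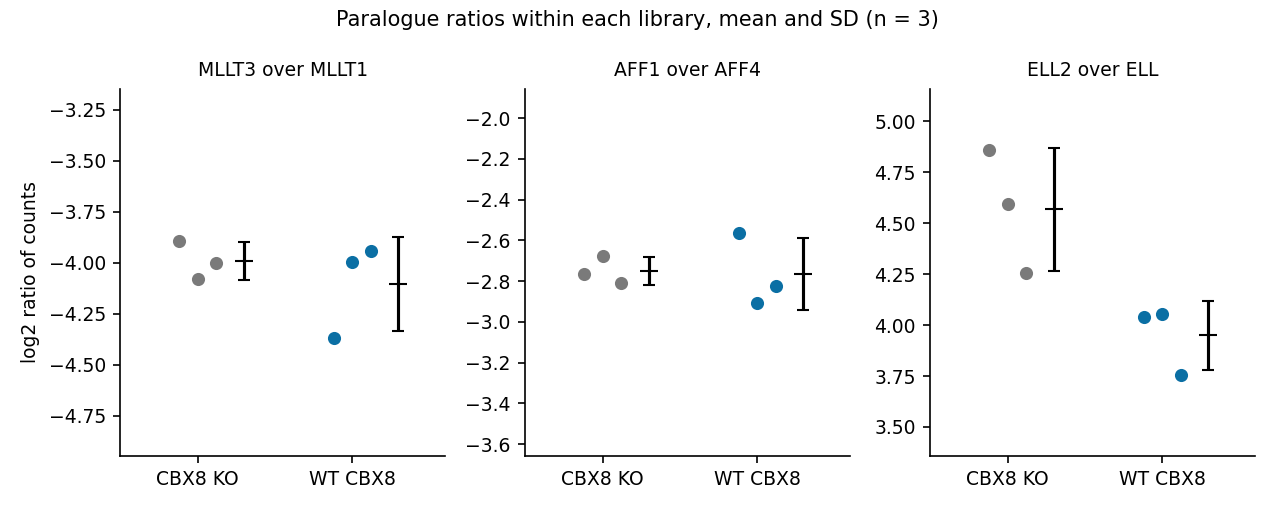
Log2 ratio of counts of MLLT3 over MLLT1, AFF1 over AFF4 and ELL2 over ELL in each library (grey CBX8 KO, blue WT CBX8 re-expression), with mean and SD (n = 3). The vertical axes differ in range but span the same number of log2 units, the first 2 pairs overlap between conditions, and all 3 re-expression libraries lie below the CBX8 KO libraries for ELL2 over ELL.

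Around these 10 genes, 84 other genes of the elongation pathway and its targets were listed by role. Of the 73 that were tested, 4 fell and 8 rose upon re-expression, where 6.63% of all tested genes were called lower and 6.23% higher. The same shares are the background for each list below, and no list was tested as a set. Among 14 further genes related to the super elongation complex and DOT1L, not all of them subunits, 12 were tested. Of these, 0 were called lower and 1 was called higher, with a median log2 fold change of −0.01. At an unadjusted p under 0.05 there were 1 lower and 3 higher, and DESeq2 and limma voom called none. The call was KMT2A, the histone methyltransferase whose fusions to these partners cause leukaemia, which had 151, 132 and 158 CPM in CBX8 KO and 143, 178 and 202 CPM upon re-expression. Its conditions overlapped (log2 fold change 0.24, SE 0.08, edgeR FDR = 0.0454), and the call was lost in 8 of 16 alternative fits, among them those without CBX8 KO replicate 1 (edgeR adjusted p = 0.0966), CBX8 KO replicate 2 (0.26), re-expression replicate 2 (0.14) or re-expression replicate 3 (log2 fold change 0.12, 0.339). BCOR, a PRC1 subunit that also binds AF9, had a log2 fold change of 0.21 (SE 0.08, edgeR FDR = 0.0805), and was called without CBX8 KO replicate 3 (edgeR adjusted p = 0.0143) and with library size only (0.0253), while without CBX8 KO replicate 1 the log2 fold change was 0.13 (0.357). CCNT2, the alternative cyclin of P-TEFb, had −0.04 (SE 0.08, edgeR FDR = 0.82). MLLT6, the AF10 paralogue, had 5, 2 and 76 counts in CBX8 KO and 3, 24 and 57 upon re-expression, and 98.2% of its transcript matches another contig of hg38, so its counts are uncertain. Its log2 fold change was −0.08 over all libraries and 2.89 without CBX8 KO replicate 3, and no direction is read from it.

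Of 6 genes that control P-TEFb, all were tested, 0 were called lower and 1 was called higher (0 lower and 2 higher at an unadjusted p under 0.05, while DESeq2 and limma voom also called 0 lower and 1 higher). HEXIM1, which holds P-TEFb inactive in a ribonucleoprotein, rose from 48.7, 55.7 and 49.2 CPM to 62.5, 64.4 and 63.6 CPM. Every re-expression library exceeded every CBX8 KO library (log2 fold change 0.31, SE 0.07, edgeR FDR = 0.00228), and all 16 alternative fits called it. The other 5 genes of this list were not called, and of the 6 genes 4 had log2 fold changes above 0 and 2 below. MEPCE had 0.17 (edgeR FDR = 0.0628), HEXIM2 0.34 (0.253) and LARP7 −0.11 (0.43). So, of the transcripts named around the kinase, HEXIM1 passed the test and MEPCE, HEXIM2, LARP7, CDK9, CCNT1 and CCNT2 did not.

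Among 14 pausing and elongation factors, all tested, 1 was called lower and 0 higher, with 2 lower and 0 higher at an unadjusted p under 0.05 and 1 lower and 0 higher by DESeq2 and by limma voom. SSRP1, a subunit of the histone chaperone FACT, fell from 519, 500 and 500 CPM to 440, 461 and 442 CPM (log2 fold change −0.18, SE 0.05, edgeR FDR = 0.0113), a call lost with library size only (0.0789). NELFE, a subunit of the pausing complex NELF, had 114, 1 and 2 counts against 146, 2 and 118, and 97.7% of its transcript matches another contig, so its counts are uncertain. It was named after its values were seen. Of 11 genes of the PAF1 complex and of histone H2B ubiquitination, which DOT1L activity depends on, 0 were called in either direction by edgeR, DESeq2 or limma voom. At an unadjusted p under 0.05 there was 1, CDC73, with a log2 fold change of −0.13 (SE 0.06, edgeR FDR = 0.158).

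Targets of KMT2A fusions and genes induced within minutes of a stimulus both rely on elongation control. Of 13 fusion targets, 10 were tested, and 1 fell and 1 rose. DESeq2, which gave MEF2C no adjusted p, called 1 lower and 0 higher, and limma voom 1 lower and 1 higher. MYC, a transcription factor of growth that is in both lists, fell from 114, 114 and 109 CPM to 74.2, 76.1 and 78.0 CPM, with no overlap (log2 fold change −0.56, SE 0.05, edgeR FDR = 3.47e-08). MEF2C, a transcription factor of muscle and blood lineages, was near the limit of detection, with 3, 6 and 2 counts against 11, 20 and 19 (log2 fold change 2.06, SE 0.45, edgeR FDR = 0.00237). HOXA6, HOXA7 and HOXA9 did not pass the filter.

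Of 27 rapid-response genes, 21 were tested. Of these, 3 were called lower (MYC, JUN and RHOB) and 5 higher (EGR1, CTGF, CYR61, DUSP1 and IER2), where 12.9% of all tested genes were called. The list was chosen with earlier results of these data known and the difference was not tested, so nothing is read from it. DESeq2 called 1 lower and 4 higher, and limma voom 3 lower and 5 higher. EGR1, an immediate-early transcription factor, rose from 9.21, 9.15 and 6.02 CPM to 16.0, 16.3 and 17.3 CPM, with no overlap (log2 fold change 1.02, SE 0.14, edgeR FDR = 7.08e-06). CTGF and CYR61, secreted matricellular proteins, had log2 fold changes of 0.59 (SE 0.09, edgeR FDR = 2.17e-05) and 0.29 (SE 0.05, edgeR FDR = 0.000135). MYC, EGR1, CTGF and CYR61 kept their calls in all 16 alternative fits. Of the 6 genes that did not pass the filter, HSPA1A, HSPA1B and IER3 have near-identical copies on other contigs. The plot of the lists places the 10 partners beside these genes.

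**Figure D4:**
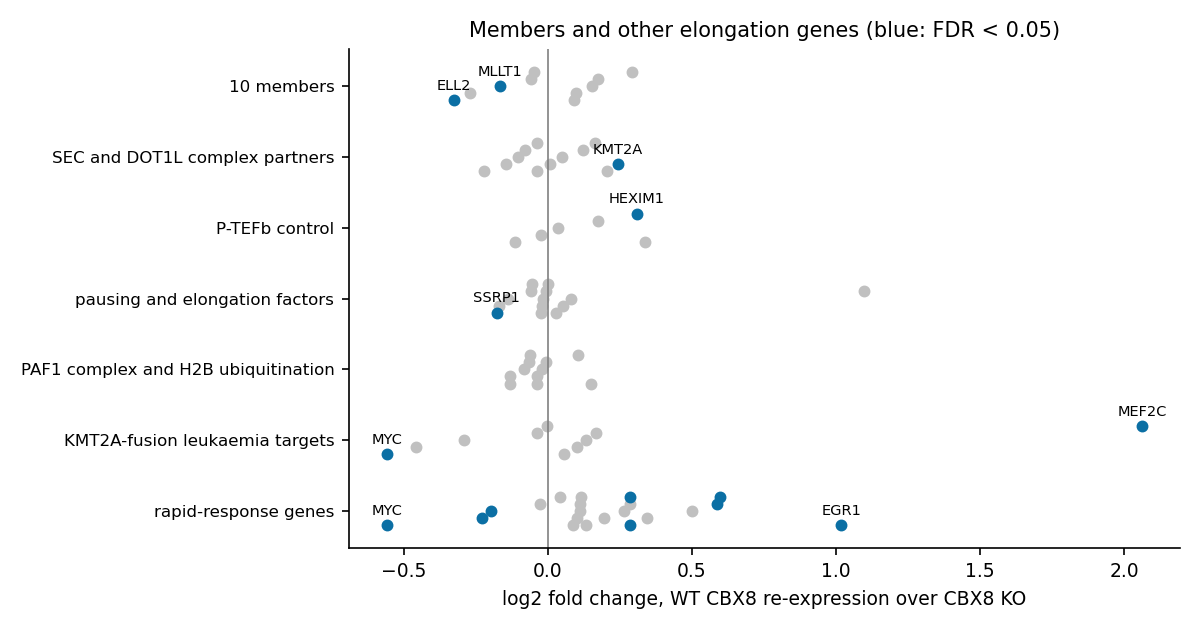
Log2 fold change of WT CBX8 re-expression over CBX8 KO for the 10 elongation partners (top row, headed members) and for each tested gene of the 6 lists, 1 point a gene, blue where FDR < 0.05. Vertical offsets within a row only separate points. The 10 partners lie between −0.33 (ELL2) and 0.29 (ELL), while the rapid-response genes reach from −0.56 (MYC) to 1.02 (EGR1), and the grey point at 1.10 is NELFE, whose counts are uncertain.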

How the data were processed

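RNA was sequenced from T98G CBX8 KO cells with the empty vector (3 libraries) or WT CBX8 (3 libraries), grouped by sample title. Raw counts for each gene symbol were deposited by the authors, made from 100 bp paired-end poly(A) reads trimmed with Trimmomatic and aligned to hg38 with HISAT2, per the labels and the methods. The program, annotation and strandedness used for counting are not given in the sources used here. In R 4.3.3, edgeR 4.0.16 was run at its defaults (filterByExpr, TMM, estimateDisp, glmQLFit, glmQLFTest), with condition as the only term, over all 6 libraries. Each SE was derived from the log2 fold change and its F statistic, and 95% intervals use the degrees of freedom of that test. Count ratios were compared by exact permutation tests.

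The 10 genes and all gene lists were chosen with earlier results of these data known. Besides the 10 genes, CBX8, KMT2A, HEXIM1, MLLT6, CCNT2 and BCOR were named by rule, as were up to 4 genes per list with the lowest FDR below 0.05. The result of 1 other gene of that rule is not reported here. Alternatives were other scaling (RLE, library size), filters, thresholds and tools (DESeq2 1.42.0, limma 3.58.1 voom, the non-legacy edgeR fit), a GC content and length correction, a replicate block and the omission of single libraries. GENCODE release 44 held 36501 symbols by name and 888 by a RefSeq synonym, giving GC content and length for 87.8% of tested genes. A match of a transcript to another hg38 contig was sought with minimap2. Same-numbered libraries of the 2 conditions did not deviate together from the means of their conditions (correlations −0.144, −0.182 and −0.115), so the fit has no block. Libraries with different numbers were not compared in this way, so deviations they share would not be seen. Libraries of a condition differed by more than sampling noise (chi-square per degree of freedom 2.06 to 3.09). The test was checked on data drawn with known changes, independently for each gene and library. These data had no effects of GC content or length, so the check does not cover such effects. Reads carry no molecular identifiers, so depth covers counting error only.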

Additional observations from a re-analysis of the deposited data

How the results depend on the processing

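Over 160 alternative values of the 10 log2 fold changes, 145 kept the direction and the side of the threshold, 9 passed it newly, 5 fell short of it (all MLLT1) and 1 turned sign (CCNT1, 0.0075 with library size only, where the median of all genes was 0.06 against 0.00). The cause of these shifts was not tested. Genes called lower in the whole table numbered 592 with library size only, 569 at FDR < 0.01 and 635 to 851 with 1 library left out, against 959. Genes called higher numbered 1400, 489 and 593 to 792, and 417 with DESeq2, against 901. Of the 10 partners, 1 was called lower with library size only, with the replicate block and at FDR < 0.01, 3 with the GC and length correction and 1 to 2 with a library left out. Partners called higher numbered 2 with library size only, 1 with no filter, with the GC and length correction, with or without the replicate block, and at FDR < 0.10, and 0 to 1 with a library left out. Pathway genes called lower numbered 1 with library size only, 2 with DESeq2, 1 at FDR < 0.01 and 2 to 5 with a library left out, against 4, and those called higher 13, 5 with DESeq2 and 6 to 10, against 8. The numbers do not pair the libraries, and under the replicate block MLLT1 (−0.17, edgeR adjusted p = 0.0621) lost its call and no other partner changed call.

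With a library left out, the paralogue difference ran from −0.19 to 0.0203 for MLLT3 over MLLT1, from −0.11 to 0.0569 for AFF1 over AFF4 and from −0.78 to −0.48 for ELL2 over ELL. Sign changes among uncalled genes were CCNT2 (0.0182 with library size only, −0.1148 to 0.0298 with a library left out) and MLLT6 (0.6973 with voom, 0.0901 with the replicate block, −1.1446 to 2.8914 with a library left out). MEF2C had no adjusted p in DESeq2. No gene of the table was called at a change under 0.14 on the log2 scale.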
